A study of Mus musculus with 12 samples.

Results

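Complement components and their receptors were followed in RNA-seq of whole mouse cerebellum from Eed conditional knockouts and wild-type mice. The set holds 9 genes of the 55385 listed, chosen by symbol: the classical-pathway recognition chains C1qa, C1qb and C1qc, the central components C3 and C4b, the anaphylatoxin receptors C3ar1 and C5ar1, and the inhibitors Serping1 and Cd59a. All 9 had enough counts to be tested, among 18091 tested genes. The EED-/- animals (3 libraries) and the WT controls (3 libraries) were 14-day-old C57BL/6 mice, and the sample titles call the EED-/- animals conditional knockouts (cKO). The Eed protein belongs to the Polycomb complex PRC2, which methylates histone H3 and keeps genes silent. Which Cre line and which exons of Eed were used is not in the labels, which also do not say whether WT animals carried a floxed allele, and do not say whether each library came from a separate animal, so p-values measure the spread between these libraries only. The 6 ChIP-seq samples of the series were not analysed here.

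Complement is a cascade of secreted proteins that tags cells, debris and synapses for uptake. C1q, built from the products of C1qa, C1qb and C1qc, binds a target and starts the classical pathway, which cleaves C4 and C2 and then C3. Cleaved C3 marks the target, and its small fragment signals through the C3a receptor. In the developing brain microglia are the main source of C1q, and C1q and C3 take part in the removal of synapses. Serping1 encodes the C1 inhibitor and Cd59a a membrane protein that blocks the terminal pore.

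The libraries held 19621814 to 20366173 estimated counts, and levels are given as CPM, counts scaled to a library of 1000000 with TMM factors. Errors are SDs over the 3 libraries of a genotype. Log2 fold changes are EED-/- over WT with adjusted p from edgeR's quasi-likelihood F test, Benjamini-Hochberg over all tested genes, and a gene is called at an adjusted p under 0.05. Eed averaged 10.7 ± 1.23 CPM in EED-/- and 23.4 ± 3.22 CPM in WT libraries, with no overlap and in the direction of the genotype labels. Cerebellar identity was checked with 7 granule neuron and 6 Purkinje cell markers, all of which were detected in both genotypes. Granule neuron markers summed to 361 to 543 CPM in EED-/- and 3540 to 4308 CPM in WT libraries, and 7 of 7 were called lower. This is bulk tissue, where more cells of a type and more RNA per cell cannot be told apart, and a smaller share of RNA from one cell type raises the share of the others.

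Of the 9 complement genes 5 rose in EED-/- cerebellum and 0 fell: C1qa, C1qb, C1qc, C4b and C3ar1. Over all tested genes 11.7% were called higher and 14.1% lower, and the list counts below are to be read beside these shares. The count at an unadjusted p under 0.05 was 6 higher and 0 lower, and DESeq2 and limma-voom each called 5 higher and 0 lower. The median log2 fold change of the 9 genes was 0.83, beside -0.03 for all tested genes. All 3 EED-/- libraries lay above all 3 WT libraries for 6 of the 9 genes, where 20.1% of all tested genes did so, and none of the 9 lay below in all libraries, against 23.8% of all tested genes. Mitochondrial genes took 7.16%, 6.45% and 8.04% of counts in EED-/- replicates 1, 2 and 3, against 3.21%, 6.37% and 5.22% in WT replicates 1, 2 and 3. This share was higher in every EED-/- library, and its part in the complement changes was not tested. The genes that were not called are C3, which had no overlap between genotypes, and C5ar1, Serping1 and Cd59a, whose genotypes overlapped.

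**Figure D1:**
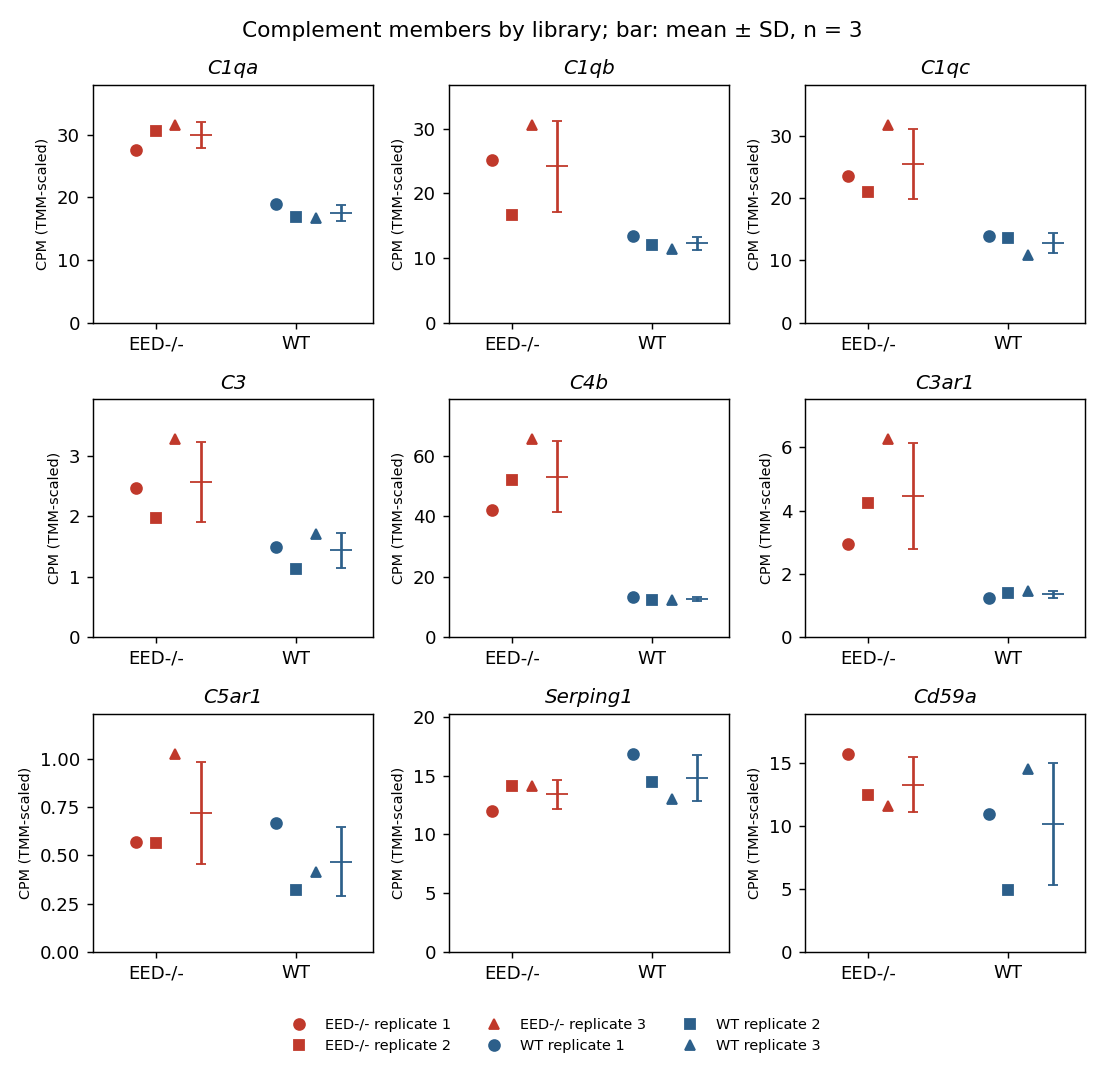
Level of each of the 9 complement genes in CPM (vertical axis, linear from 0) in the EED-/- and WT libraries, with 1 symbol per replicate and the mean ± SD beside the points. C1qa, C1qb, C1qc, C4b, C3ar1 and C3 lie higher in every EED-/- library, while C5ar1, Serping1 and Cd59a overlap.

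The C1q chains are encoded by 3 neighbouring genes on the minus strand of chromosome 4 (GRCm38): C1qb at 136880129 to 136886187, C1qc at 136889804 to 136893065 and C1qa at 136895917 to 136898803. Gaps of 3616 and 2851 bases separate them. Because these neighbours rose together, promoter sequences from RefSeq (GRCm38.p6, 250 bases before to 50 after the gene start, printed 5′ to 3′ on the gene's strand) are shown for the 2 chains that the promoter table holds, and for C3ar1 as a receptor on another chromosome that also rose. Capitals mark GAGGAA, a core of the kind bound by PU.1, a transcription factor of myeloid cells, on either strand. The C1qb window is chr4:136886151-136886450, the C1qc window chr4:136892865-136893164 and the C3ar1 window chr6:122856108-122856407, each on the minus strand.
C1qb: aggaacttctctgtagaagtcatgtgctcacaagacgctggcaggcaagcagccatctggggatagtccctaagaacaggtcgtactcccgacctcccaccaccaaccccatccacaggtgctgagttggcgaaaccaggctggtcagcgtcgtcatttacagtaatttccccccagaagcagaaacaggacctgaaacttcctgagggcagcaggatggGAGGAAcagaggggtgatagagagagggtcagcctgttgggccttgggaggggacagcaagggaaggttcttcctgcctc
C1qc: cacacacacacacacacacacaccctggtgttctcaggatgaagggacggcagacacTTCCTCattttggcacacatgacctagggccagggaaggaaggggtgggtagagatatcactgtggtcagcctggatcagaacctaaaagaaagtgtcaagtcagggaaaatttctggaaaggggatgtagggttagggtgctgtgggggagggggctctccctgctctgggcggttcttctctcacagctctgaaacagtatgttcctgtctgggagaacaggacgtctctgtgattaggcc
C3ar1: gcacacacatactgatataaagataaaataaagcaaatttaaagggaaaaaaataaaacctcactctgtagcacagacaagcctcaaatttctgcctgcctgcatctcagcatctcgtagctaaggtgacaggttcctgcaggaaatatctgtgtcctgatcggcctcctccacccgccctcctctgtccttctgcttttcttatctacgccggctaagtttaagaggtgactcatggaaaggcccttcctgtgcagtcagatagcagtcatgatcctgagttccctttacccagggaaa

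Positions are counted from the RefSeq gene start, which differs from the gene ends given above, taken from GENCODE. For C1qc, C3ar1 and C5ar1 the RefSeq start lies inside the GENCODE gene, and for C3 and Cd59a the starts coincide. The GAGGAA core was absent from the C3ar1 window. It starts at -30 on the gene's strand in the C1qb window and at -193 on the opposite strand in the C1qc window. It was found in 3 of the 6 member promoters in the table, the third being Cd59a at -62, and in 28.3% of all 32851 promoters. An interferon response type core, GAAANNGAA, was present in C5ar1 and Cd59a and in 8.56% of all promoters. In Cd59a it lies at -187, away from the other core. STAT-type TTCNNNGAA (8.3% of all promoters) and NF-kB-type GGGANTTCC (1.68%) were in none of the 6, all searches covering both strands. The 6 windows had 1 to 6 CpG sites, and their observed over expected CpG ratios of 0.0725 (Cd59a) to 0.325 (C3ar1) all lay under the median of 0.384 over all promoters. These matches describe letters in a window and say nothing about binding.

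C1qa, the A chain, had 27.6, 30.6 and 31.6 CPM in EED-/- replicates 1, 2 and 3, against 18.9, 16.8 and 16.6 CPM in WT replicates 1, 2 and 3. The EED-/- libraries were close together and all above WT, and C1qa rose 1.72-fold (log2 fold change 0.78, SE 0.118, adjusted p = 0.0024). The B chain C1qb had 25.1, 16.7 and 30.6 CPM in EED-/- replicates 1, 2 and 3, against 13.4, 12 and 11.4 CPM in WT replicates 1, 2 and 3. EED-/- replicate 2 was nearest to WT, and the rise was 1.97-fold (log2 fold change 0.98, SE 0.213, adjusted p = 0.0115). Without WT replicate 3 the adjusted p of C1qb was 0.0531. The C chain C1qc had 23.5, 20.9 and 31.8 CPM in EED-/- replicates 1, 2 and 3, against 13.9, 13.6 and 10.9 CPM in WT replicates 1, 2 and 3. Its genotypes did not overlap, and it rose 1.99-fold (log2 fold change 0.99, SE 0.183, adjusted p = 0.00555). Summed over the 3 chains, C1q had 76.3, 68.2 and 94 CPM in EED-/- replicates 1, 2 and 3, against 46.2, 42.3 and 38.9 CPM in WT replicates 1, 2 and 3. No stretch of 31 bases of the C1q transcripts occurs in a transcript of another gene, so these counts do not depend on dividing reads between paralogues.

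The chains enter the C1q protein in equal numbers, and their transcript ratios were compared within each library, where scaling between libraries cancels. Per kilobase of merged exon, C1qa over C1qb was 1.08 to 1.92 in EED-/- and 1.47 to 1.52 in WT libraries. EED-/- libraries spread to both sides of WT, with EED-/- replicate 2 the highest at 1.92. C1qb over C1qc was 1.42 to 1.9 in EED-/- and 1.56 to 1.87 in WT libraries, and C1qa over C1qc was 1.85 to 2.72 in EED-/- and 2.3 to 2.85 in WT libraries. The log2 ratios differed between EED-/- and WT by -0.16, -0.04 and -0.2, with exact two-sided permutation p = 0.5, 0.8 and 0.4 (0.75, 0.8 and 0.75 after adjustment over the 3 pairs). With 3 against 3 libraries the smallest p is 0.1, so this design could not have called a change in chain balance. The level of C1qc per kilobase depends on the transcript model: with the longest transcript (1203 bases) in place of merged exons (1931 bases), C1qb over C1qc was 0.882 to 1.18 in EED-/- and 0.975 to 1.16 in WT libraries.

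C4b showed the largest fold change of the 9 genes. C4 is cleaved by activated C1 and supplies part of the enzyme that cleaves C3. C4b (chromosome 17, 34728380 to 34743882, minus strand) had 42, 51.9 and 65.6 CPM in EED-/- replicates 1, 2 and 3, against 13.4, 12.3 and 12.2 CPM in WT replicates 1, 2 and 3. All EED-/- libraries were far above the tightly grouped WT libraries, and C4b rose 4.2-fold (log2 fold change 2.07, SE 0.172, adjusted p = 0.000146). In the authors' deposited table C4b has a log2 fold change of 2.09 and an adjusted p of 5.16e-25. Of the distinct 31-base stretches of C4b, 48.3% also occur in the neighbouring paralogue C4a, so the division of counts between them is uncertain. C4a itself had 1.08 ± 0.207 CPM in EED-/- and 1.18 ± 0.342 CPM in WT libraries (log2 fold change -0.12, SE 0.318, adjusted p = 0.815). Counting both as 1 gene, the change was 1.97 on the log2 scale (SE 0.171, adjusted p = 0.000183).

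C3, the component on which all complement pathways converge, was low. C3 (chromosome 17, 57203970 to 57228136) had 2.46, 1.98 and 3.28 CPM in EED-/- replicates 1, 2 and 3, against 1.49, 1.13 and 1.71 CPM in WT replicates 1, 2 and 3. These rest on 161 counts over the EED-/- and 83 counts over the WT libraries. Every EED-/- library was above every WT library, but the log2 fold change of 0.83 (SE 0.28) had an adjusted p of 0.0597 and C3 was not called. Upper-quartile scaling and library size alone, which moved the median change of all genes up by 0.117 and 0.0999, called it at adjusted p = 0.0392 and 0.0403.

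Of the receptors, C3ar1, which binds the C3a fragment, rose and C5ar1, which binds C5a, was not called. C3ar1 (chromosome 6, 122847138 to 122856161) had 2.94, 4.23 and 6.26 CPM in EED-/- replicates 1, 2 and 3, against 1.23, 1.39 and 1.45 CPM in WT replicates 1, 2 and 3. The WT libraries were close together and the EED-/- libraries spread widely above them, at a 3.29-fold higher level (log2 fold change 1.72, SE 0.304, adjusted p = 0.00465). C5ar1 (chromosome 7, 16246743 to 16259540) had 12, 12 and 21 counts in EED-/- replicates 1, 2 and 3, against 13, 6 and 8 counts in WT replicates 1, 2 and 3. With so few counts in WT replicates 2 and 3, C5ar1 passed the low-count filter mainly through the EED-/- libraries. The genotypes overlap, and a difference was not detectable at this depth (log2 fold change 0.61, SE 0.42, adjusted p = 0.325, and 0.32 to 1.0 on the log2 scale without single libraries).

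The inhibitors were not called. Serping1 (chromosome 2, 84765387 to 84775444), whose product inactivates C1r and C1s, had 12, 14.1 and 14.1 CPM in EED-/- replicates 1, 2 and 3, against 16.9, 14.5 and 13 CPM in WT replicates 1, 2 and 3. Its log2 fold change was -0.14 (SE 0.149, adjusted p = 0.526). Cd59a (chromosome 2, 104095801 to 104115354, plus strand) had 15.8, 12.5 and 11.6 CPM in EED-/- replicates 1, 2 and 3, against 11, 4.94 and 14.5 CPM in WT replicates 1, 2 and 3. WT replicate 2 was low, EED-/- replicate 1 was the highest of all, and the other libraries overlapped, so the log2 fold change of 0.39 has an SE of 0.341 (adjusted p = 0.449). Without single libraries it was 0.05 to 0.73 for Cd59a. Cd59a shares 9.39% of its 31-base stretches with other genes, mostly its neighbour Cd59b, which was not called either (log2 fold change 0.2, SE 0.256, adjusted p = 0.611).

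Levels of different genes were set side by side only as CPM per kilobase of merged exon. In EED-/- libraries the order was C1qa (28.8 ± 2.01), C1qb (22.2 ± 6.46), C1qc (13.2 ± 2.93), C4b (9.34 ± 2.08), Cd59a (7.33 ± 1.21), Serping1 (5.77 ± 0.534), C3ar1 (1.04 ± 0.39), C3 (0.5 ± 0.128) and C5ar1 (0.28 ± 0.104). Each of the first 4 genes overlapped with the next in this order, as did C3 with C5ar1. In WT libraries the order was C1qa (16.8 ± 1.23), C1qb (11.3 ± 0.961), C1qc (6.61 ± 0.858), Serping1 (6.36 ± 0.837), Cd59a (5.6 ± 2.68), C4b (2.22 ± 0.12), C3ar1 (0.315 ± 0.0262), C3 (0.28 ± 0.0568) and C5ar1 (0.182 ± 0.0695). Here C1qc overlapped with Serping1, Serping1 with Cd59a, C3ar1 with C3, and C3 with C5ar1. C4b thus had rank 4 in EED-/- and rank 6 in WT libraries. Order and overlaps depend on the transcript model. The longest transcript has 1203 bases for C1qc (1931 merged) and 1768 bases for Serping1 (2325 merged). With that length C1qb over C1qc was 0.882 to 1.18 in EED-/- and 0.975 to 1.16 in WT libraries, so these chains were not separated. The other neighbours were not compared with that length.

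Of 16 microglial markers 13 were called higher and 0 lower (15 higher and 0 lower at an unadjusted p under 0.05, 14 and 0 by DESeq2 and by limma-voom), and all 16 were detected. Their summed level was 417 to 464 CPM in EED-/- and 229 to 245 CPM in WT libraries, a ratio of 1.85. Among the most abundant were the growth factor receptor Csf1r (85.1 ± 3.28 CPM in EED-/-, 51 ± 6.02 CPM in WT) and the fractalkine receptor Cx3cr1 (51.6 ± 3.62 CPM in EED-/-, 26.7 ± 1.43 CPM in WT), both called higher. Selplg was not called (log2 fold change 0.08, SE 0.165, adjusted p = 0.769), nor were P2ry12 (0.94, SE 0.315, adjusted p = 0.0629) and Tmem119 (0.52, SE 0.199, adjusted p = 0.0883). The calls of Olfml3, Ctss and Aif1 were lost in 3, 2 and 1 of 13 alternatives.

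Each complement gene was then expressed per 1000 CPM of the summed microglial markers. C1qa had 66.1, 72 and 68.2 CPM per 1000 CPM of markers in EED-/- replicates 1, 2 and 3, against 81, 68.6 and 72.6 in WT replicates 1, 2 and 3. Relative to the markers C1qa, C1qb and C1qc differed between EED-/- and WT by -0.1, 0.05 and 0.1 on the log2 scale, with overlapping groups (exact permutation p = 0.2, 0.9 and 0.6). C4b had 101, 122 and 141 CPM per 1000 CPM of markers in EED-/- replicates 1, 2 and 3, against 57.5, 50.4 and 53.2 in WT replicates 1, 2 and 3. This ratio was 2.24-fold higher in EED-/- libraries, with no overlap. C3ar1 had 7.03, 9.96 and 13.5 in EED-/- replicates 1, 2 and 3, against 5.27, 5.7 and 6.31 in WT replicates 1, 2 and 3, a 1.71-fold higher ratio without overlap. Serping1 had 28.7, 33.2 and 30.5 in EED-/- replicates 1, 2 and 3, against 72.3, 59.2 and 56.8 in WT replicates 1, 2 and 3. Its ratio was 2.03-fold lower in EED-/- libraries. Serping1 in CPM overlapped between genotypes (log2 fold change -0.14), while the marker sum was 1.85-fold higher in EED-/- libraries. For C4b, C3ar1 and Serping1 the exact two-sided permutation p was 0.1, the smallest that 3 against 3 libraries allow, and 0.3 after adjustment over the 9 genes. The ratios of C3, C5ar1 and Cd59a overlapped, with log2 differences of -0.06, -0.25 and -0.37 (exact permutation p = 0.8, 0.7 and 0.5). The part of microglial RNA in the rise of each gene was not tested beyond these ratios.

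**Figure D2:**
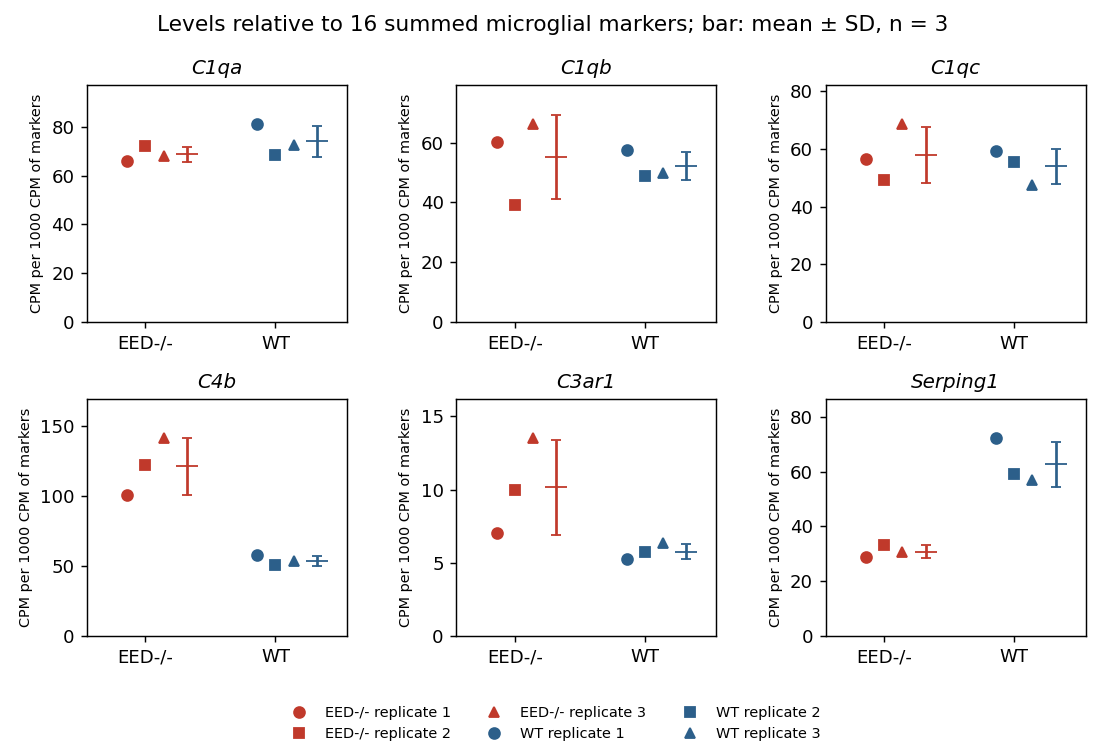
Level of 6 complement genes relative to 16 summed microglial markers (vertical axis, CPM of the gene per 1000 CPM of markers, linear from 0) in EED-/- and WT libraries, with the mean ± SD beside the points. C1qa, C1qb and C1qc overlap between genotypes, C4b and C3ar1 lie higher in every EED-/- library, and Serping1 lies lower in every EED-/- library. In CPM alone Serping1 overlaps between genotypes.

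Markers of some other cell types that can express complement moved as follows, and their part in the complement changes was not tested. Oligodendrocyte markers were not examined. Of 7 border macrophage markers 3 were called higher, Mrc1, Pf4 (lost in 7 of 13 alternatives) and F13a1 (lost in 2), and 0 lower (6 and 0 at an unadjusted p under 0.05, 2 and 0 by DESeq2), with sums of 24.7 to 34.8 CPM in EED-/- and 14.6 to 16.4 CPM in WT libraries. Mrc1, the mannose receptor, averaged 11.3 ± 1.41 CPM in EED-/- and 5.08 ± 1.04 CPM in WT libraries. F13a1 averaged 7.29 ± 1.65 CPM in EED-/- and 3.71 ± 0.604 CPM in WT libraries. Cd163, at 4.31 ± 0.908 CPM in EED-/- and 3.1 ± 0.863 CPM in WT libraries, was not called. Of 9 meningeal fibroblast markers 8 were called higher, and the list summed to 882 to 1199 CPM in EED-/- and 395 to 477 CPM in WT libraries. The call of Ogn was lost in 5 of 13 alternatives, and those of Col1a2 and Lum in 1 each. Igf2 averaged 487 ± 92.3 CPM in EED-/- and 186 ± 8.42 CPM in WT libraries, Col1a2 169 ± 25.5 CPM in EED-/- and 96.4 ± 21.5 CPM in WT, and Col1a1 112 ± 25 CPM in EED-/- and 46.3 ± 10.6 CPM in WT.

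Astrocyte and Bergmann glia markers were mixed, with 2 higher (Gfap, and Gja1, whose call was lost in 4 of 13 alternatives) and 3 lower (Slc1a3, Gdf10 and Hopx) of 10, and summed to 3617 to 5249 CPM in EED-/- and 4216 to 4490 CPM in WT libraries. The glutamate transporters Slc1a2 and Slc1a3 and the filament gene Gfap were the most abundant. Slc1a2 averaged 1811 ± 488 CPM in EED-/- and 1376 ± 133 CPM in WT libraries, Slc1a3 429 ± 17 CPM in EED-/- and 1202 ± 96.3 CPM in WT, and Gfap 716 ± 253 CPM in EED-/- and 321 ± 33.7 CPM in WT. Endothelial markers had 1 of 7 called higher, Tek (lost in 4 of 13 alternatives), with sums of 267 to 304 CPM in EED-/- and 245 to 264 CPM in WT libraries. Flt1, Cldn5 and Slco1a4, the most abundant of them, had log2 fold changes of 0.04, 0.33 and 0.02 and were not called. Of 4 tested monocyte and neutrophil markers only Mpo was called higher, a call lost in 5 of 13 alternatives, and DESeq2 called 0. Mpo had 8, 4 and 5 counts in WT replicates 1, 2 and 3, and was tested only because of its EED-/- counts. The monocyte and neutrophil list of 9 summed to 3.67 to 8.57 CPM in EED-/- and 3.85 to 4.61 CPM in WT libraries. Its 3 most abundant genes, S100a9, S100a8 and Ly6c2, were not called. The neutrophil marker Ly6g had 0 counts over the EED-/- and 1 count over the WT libraries. Of 8 lymphocyte markers, Cd79a, Cd4 and Ms4a1 the most abundant, 2 were tested, Cd79a and Cd4, and edgeR, DESeq2, limma-voom and an unadjusted p under 0.05 called 0 of them. Their sums were 1.75 to 1.83 CPM in EED-/- and 1.91 to 2.15 CPM in WT libraries.

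Of 6 choroid plexus markers (Ttr, Clic6 and Kl the most abundant) 0 were called by edgeR, DESeq2, limma-voom or an unadjusted p under 0.05, with sums of 374 to 794 CPM in EED-/- and 764 to 800 CPM in WT libraries. Of 6 Purkinje cell markers edgeR called 0, with 1 higher and 1 lower at an unadjusted p under 0.05. DESeq2 called 1 of them higher and limma-voom 0. Itpr1, Car8 and Calb1 were the most abundant. Of 5 blood genes edgeR and limma-voom called 0 and DESeq2 1, with 4 at an unadjusted p under 0.05. Hbb-bs, Hba-a2 and Hba-a1 were the most abundant, and the list summed to 1775, 1264 and 355 CPM in EED-/- replicates 1, 2 and 3, against 555, 255 and 312 CPM in WT replicates 1, 2 and 3. The part of blood RNA in the complement levels was not tested. Skeletal muscle genes, with Myh3, Myh8 and Acta1 the most abundant, were called higher in 7 of 7 cases. They summed to 63.7 to 100 CPM in EED-/- and 3.57 to 4 CPM in WT libraries. At so low a WT sum, some of them may have been tested only because of their EED-/- counts. The filter then favours a call in that direction, so this count is not to be read beside the shares of all tested genes. Of the granule neuron markers Zic1, Fat2 and Cbln3 were the most abundant, at 173 ± 20.4, 82.4 ± 26.2 and 42.7 ± 21.3 CPM in EED-/- and 922 ± 46.9, 1095 ± 236 and 786 ± 128 CPM in WT libraries.

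**Figure D3:**
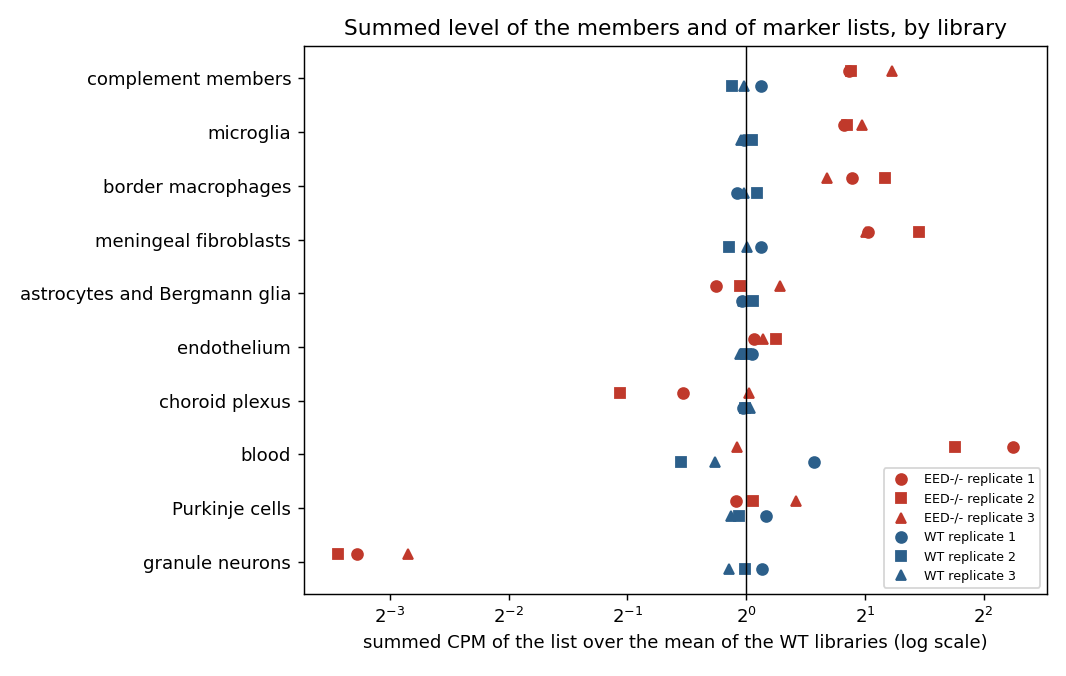
Summed CPM of the 9 complement genes and of 9 marker lists in each EED-/- and WT library, divided by the mean of the WT libraries (horizontal axis, log2-spaced, 1 at the vertical line). Complement, microglial, border macrophage, meningeal fibroblast and endothelial sums lie higher in every EED-/- library, and the granule neuron sum lies lower in every EED-/- library.

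The wider cascade was counted on 42 further complement genes in 5 lists. Of these 21 had enough counts to be tested, and their median log2 fold change was 0.18. Of the 21 tested, 6 were called higher and 1 lower, and 14 were not called. Among the 6 is Itgax, which was tested only because of its EED-/- counts, and this favours a call in that direction. The shares of all tested genes were 11.7% higher and 14.1% lower. Of the 42 genes, C1rb, Mbl1, Colec10, C9, Vsig4 and Cpn2 had 0 counts in every library, and of the 7 genes in the terminal pathway list only C8g was tested (1.47 ± 0.397 CPM in EED-/-, 1.38 ± 0.26 CPM in WT). C5, listed as Hc, had 25 counts over the EED-/- and 12 over the WT libraries and was not tested.

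Of the recognition and protease list, 5 of 12 genes were tested and edgeR, DESeq2 and limma-voom called 0, with 1 at an unadjusted p under 0.05. Masp1, a lectin-pathway protease gene and the most abundant, averaged 27 ± 0.495 CPM in EED-/- and 24.6 ± 0.575 CPM in WT libraries (log2 fold change 0.13, SE 0.102, adjusted p = 0.386). C1s1, a protease of the C1 complex, averaged 3.03 ± 0.783 CPM in EED-/- and 1.77 ± 0.19 CPM in WT libraries, without overlap (log2 fold change 0.77, SE 0.257, adjusted p = 0.0574). C1s1 shares 47.6% of its 31-base stretches with other genes. Its partner C1ra averaged 1.3 ± 0.467 CPM in EED-/- and 1.17 ± 0.0585 CPM in WT libraries (log2 fold change 0.15, SE 0.318, adjusted p = 0.77).

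Of the genes that form and amplify the C3 convertase, C2 was called higher and properdin, Cfp, lower. C2, the partner of C4b in the enzyme, averaged 3.99 ± 0.752 CPM in EED-/- and 2.33 ± 0.345 CPM in WT libraries (log2 fold change 0.77, SE 0.224, adjusted p = 0.0345). That call was lost in 7 of 13 alternatives, DESeq2 among them, and C2 shares 44.4% of its 31-base stretches with other gene models. Cfp, which stabilises the alternative-pathway convertase, averaged 5.81 ± 0.361 CPM in EED-/- and 11.1 ± 1.67 CPM in WT libraries (log2 fold change -0.93, SE 0.163, adjusted p = 0.00451), and no alternative ended its call. The alternative-pathway component Cfb was not called (log2 fold change 0.18, SE 0.273, adjusted p = 0.676).

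Of the 4 tested genes in the complement receptor list 3 were called higher, among them Itgax, which was tested only because of its EED-/- counts. Itgam, the alpha chain of complement receptor 3, averaged 19.5 ± 2.09 CPM in EED-/- and 10.8 ± 2.53 CPM in WT libraries (log2 fold change 0.85, SE 0.183, adjusted p = 0.0109). It shares 68.3% of its 31-base stretches with other gene models, so its counts are uncertain. The shared beta chain Itgb2 averaged 6.12 ± 1.67 CPM in EED-/- and 3.3 ± 0.905 CPM in WT libraries (log2 fold change 0.89, SE 0.266, adjusted p = 0.0395), a call lost in 5 of 13 alternatives. Itgax, the alpha chain of complement receptor 4, had 1.47, 2.02 and 6.51 CPM in EED-/- replicates 1, 2 and 3, against 0.308, 0.161 and 0.258 CPM in WT replicates 1, 2 and 3. The WT values rest on 6, 3 and 5 counts, so Itgax passed the low-count filter only through the EED-/- libraries, and its fitted fold over so low a level is imprecise. EED-/- replicate 3 stood well above replicates 1 and 2, and the log2 fold change was 3.74 (SE 0.682, adjusted p = 0.00609), with 2.87 to 4.1 over the alternatives. Cr2 was not called.

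Among 12 regulators 7 were tested and 2 were called higher, Cd55 among them. Cd55, a membrane protein that dissociates C3 convertases, averaged 7.38 ± 0.962 CPM in EED-/- and 3.44 ± 0.732 CPM in WT libraries (log2 fold change 1.1, SE 0.21, adjusted p = 0.00636). Clu, Cr1l and Cd46 had log2 fold changes of 0.02, 0.02 and -0.39 and were not called, as was Vtn (0.44, SE 0.149, adjusted p = 0.062), which DESeq2 called.

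**Figure D4:**
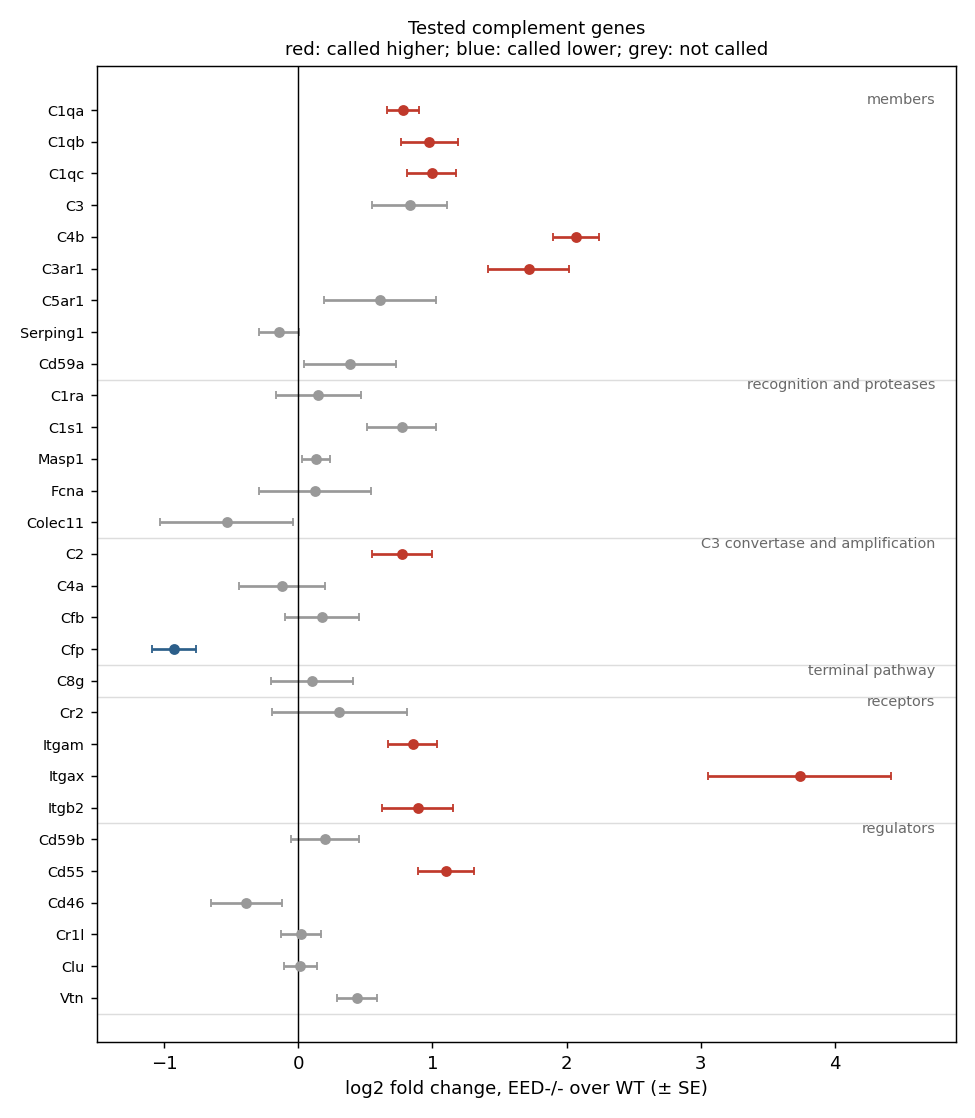
Log2 fold change of EED-/- over WT (horizontal axis, ± SE) for the 9 complement genes and for the other tested complement genes reported here, grouped by role. C4b at 2.07, C3ar1 at 1.72 and Itgax at 3.74 lie farthest to the right, and Cfp at -0.93 is the only call to the left of 0. Itgax was tested only because of its EED-/- counts, and its fold change is imprecise.

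Neuronal proteins that bind or resemble complement factors moved in both directions. Of 11 such genes 3 rose, Srpx2, Susd4 and Nptx2, and 5 fell, Csmd2, Sez6, Sez6l2, Nptx1 and Nptxr. Among all tested genes 11.7% were called higher and 14.1% lower. The neuronal pentraxin Nptx1 averaged 170 ± 29.7 CPM in EED-/- and 513 ± 105 CPM in WT libraries, and the pentraxin receptor Nptxr 234 ± 11.1 CPM in EED-/- and 625 ± 105 CPM in WT. Nptx2, of the same family, averaged 19.1 ± 3.8 CPM in EED-/- and 8.9 ± 1.56 CPM in WT libraries. Among genes with CUB and sushi domains, Sez6 averaged 113 ± 10.9 CPM in EED-/- and 252 ± 39.9 CPM in WT libraries, and Csmd2 66.1 ± 4.94 CPM in EED-/- and 113 ± 7.53 CPM in WT. Sez6l2 (log2 fold change -0.58) lost its call in 8 of 13 alternatives. The sushi-domain gene Susd4 averaged 118 ± 3.03 CPM in EED-/- and 78.5 ± 7.52 CPM in WT libraries, and Srpx2 1.85 ± 0.253 CPM in EED-/- and 0.728 ± 0.173 CPM in WT. The synaptic genes with a C1q domain, which are no complement components, were called in 8 of 8 cases: C1ql1, C1ql2, C1ql3, C1ql4, Cbln2 and Cbln4 higher, and Cbln1 and Cbln3 lower. Their log2 fold changes were 0.68 (C1ql3) to 1.94 (C1ql2) among the rises and -3.07 (Cbln1) and -4.2 (Cbln3) among the falls. The call of C1ql1 was lost in 4 of 13 alternatives and that of C1ql3 in 1.

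Profiles over the 6 libraries were compared by the root mean square difference of centred log2 CPM (0.5 CPM added) over 11843 genes with a mean of at least 5 CPM. Among the profiles nearest to summed C1q were Chrna3 (0.0619), Fibin (0.0623), Map3k20 (0.0835) and Sulf1 (0.0918). That of C4b lay nearest to Hs3st3b1 (0.131), Fzd10 (0.178), Pax7 (0.279), Pamr1 (0.289) and Pappa (0.302). All of these genes were higher in EED-/- libraries, which the choice by likeness fixes, and likeness over 6 bulk libraries is a description only.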

How the data were processed

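RNA was polyadenylated RNA of whole cerebellum, extracted with Trizol and prepared with an Illumina RNA-seq kit, per the labels' protocols. The deposited table holds expected counts per Ensembl gene and library: 22.5% to 23.6% of values were not whole to within 1e-06. Per the submitters' processing notes, the tools were Salmon 1.1.0, DESeq2 1.26.0, MACS2, Bowtie2 2.4.1 and Trimmomatic 0.36, and the builds GRCm38 and mm10, with no role or order given. The authors' deposited table of differences gives mean normalized counts (a signal per gene), a log2 fold change with its SE, a Wald score, and p-values before and after adjustment. Strand use in counting is not stated.

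Counts were rounded, filtered with filterByExpr, scaled by TMM and tested with edgeR 4.0.16 in R 4.3.3 (robust quasi-likelihood F test, two-sided, genotype as the only term). Each SE is the log2 change over the root of its F value. Alternatives were RLE, upper-quartile and no scaling, no filter, DESeq2 1.42.0, limma-voom (limma 3.58.1), the replicate number as a block, leaving out each library, and C4a summed with C4b, the last chosen after seeing the data. The procedure was also run on simulated counts, with the same dispersion for all genes and changes only in genes of higher counts. Its outcome is not given here and is no support for calls at low counts. Libraries of one genotype were not duplicates: their counts gave a chi-square of 8.36 to 55.2 per degree of freedom.

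Positions, exon lengths and shared 31-base stretches came from GENCODE M21 (GRCm38), and promoters from RefSeq (GRCm38.p6), which held 6 of the 9 genes (not C1qa, C4b and Serping1). Protein comparisons were not made. Single results of 2 genes that the lists hold are not reported here, but both stay in the counts and sums.

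The members, gene lists and motifs were chosen with earlier results of these data known. Named genes are Eed, all members, every called gene of the complement and neuronal lists (or the most abundant tested gene where none was called), the 3 most abundant genes of each marker list and the 5 nearest profiles. Other called or borderline genes of short counts were named after their values were seen.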

Additional observations from a re-analysis of the deposited data

How the results depend on the processing

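Directions and calls of Eed, C1qa, C1qc, C4b and C3ar1 did not change in any of their 13 or 14 alternatives. C1qb was called in 12 of 13; without WT replicate 3 its log2 fold change was 0.92 (adjusted p = 0.0531, against 0.000187 to 0.0531 over its alternatives). C3 became called with upper-quartile scaling (0.95, adjusted p = 0.0392) and library size alone (0.93, adjusted p = 0.0403), with 0.0392 to 0.151 over its alternatives. Over all genes these scalings called 2828 higher and 1786 lower, and 2641 higher and 1865 lower, beside 2125 and 2544 with TMM. Leaving out single libraries gave log2 fold changes of 0.82 to 1.18 for C1qb, 0.67 to 0.99 for C3, 0.32 to 1.0 for C5ar1, 0.05 to 0.73 for Cd59a and -0.23 to 0.0152 for Serping1, whose sign turned without WT replicate 1. In these runs members called higher numbered 4 (without WT replicate 3) to 5, other complement genes called higher 3 (without WT replicate 3) to 6 and lower 1 to 2 (without WT replicate 1, where Cd46 was the second), and microglial markers called higher 10 to 15. Upper-quartile scaling and library size alone each called 6 members and 8 other complement genes higher, and no filter called 5 and 7.

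Relative to microglial markers, log2 differences without single libraries were -0.0947 to 0.28 for C1qb, -0.0300 to 0.21 for C1qc, -0.25 to 0.101 for C3, -0.51 to 0.0442 for C5ar1, 1.05 to 1.29 for C4b, 0.54 to 1.01 for C3ar1, -1.09 to -0.92 for Serping1 and -0.85 to -0.025 for Cd59a. With the mean log2 CPM of the markers in place of their sum, C1qb gave -0.0255. The chain ratios gave -0.42 (exact permutation p = 0.1, without EED-/- replicate 2) to -0.0039 for C1qa over C1qb, -0.35 to -0.0686 for C1qa over C1qc and -0.14 to 0.0723 for C1qb over C1qc. The cause of these changes was not tested.

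Labels number the replicates 1 to 3 in both genotypes. Deviations of same-numbered libraries correlated at 0.0384, -0.33 and 0.00181, and those of differently numbered libraries at -0.275 to 0.291. Deviations from a mean of 3 libraries are not independent, so these values cannot tell whether equal numbers mark a pair. The replicate block left 5 members called higher (C1qb at a log2 fold change of 0.94, adjusted p = 0.0171), 4 other complement genes higher, and 1505 and 1706 genes higher and lower overall. Low counts limit the precision for C5ar1 (45 counts over the EED-/- and 27 over the WT libraries) and C3.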
